A study of Mus musculus with 2 samples.

Results

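Eph receptors, ephrins, semaphorins, plexins, netrins, Unc5 receptors, Slit ligands and Robo receptors were examined in RNA-seq of sorted mouse lung epithelium. Members were chosen by gene symbol, as every symbol that begins like a name of these families, and 68 of the 22072 symbols in the expression tables qualified. Of the 68, Unc50 (a Golgi protein) and Unc5cl (a death domain protein) only share letters with the Unc5 receptors and are not guidance genes. These families carry cues between cells. Semaphorins signal through plexins, the secreted class 3 forms mostly with a neuropilin co-receptor, and ephrins bind Eph receptor kinases on the neighbouring cell. Netrins bind Dcc, neogenin and Unc5 receptors, and Slit proteins bind Robo receptors. They were first described in axon guidance and are also known in lung branching, in blood vessel growth and in the spacing of epithelial cells.

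There were 2 libraries, each from the RNA of 4 pooled adult mice fed doxycycline at 625 mg per kg of food for 16 days. Mice of the library labelled Mst1/2-deleted carried Scgb1a1-rtTA, a transactivator under the club cell promoter of Scgb1a1, together with the tetOCre transgene and with Mst1-flx/flx and Mst2-flx/flx alleles. The control mice carried tetOCre and the same homozygous floxed alleles of these Hippo pathway kinases, but no Scgb1a1-rtTA, without which doxycycline does not switch on Cre. The library labelled Mst1/2-deleted is called the deleted-label library below. Effects of the transactivator, of Cre and of the deletion cannot be told apart. The sort kept CD326+ cells of intermediate CD24 level that lacked lineage markers, in order to enrich secretory airway cells without cilia. With 1 pooled library per genotype there was no replicate error, no difference had a replicate check and no test was possible.

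Approximate reads on the listed transcripts numbered 8340000 in the deleted-label library and 8780000 in the control library. Levels are FPKM, sequenced fragments relative to library size and transcript length, and can be compared between genes because they are per length. Intervals beside FPKM ratios are 95% intervals for counting error alone. FPKM of the targeted genes was not strongly reduced. Stk4, which encodes Mst1, had an FPKM of 4.71 in the deleted-label library and 5.38 in the control library. Stk3, which encodes Mst2, had 7.09 in the deleted-label and 7.28 in the control library. These levels are over whole transcripts and over all sorted cells. They do not show the floxed part alone, so how far the deletion went was not measured. The sorted pools held alveolar as well as club cell transcripts. Club cell marker Cyp2f2 had FPKM of 5305 in the deleted-label library and 4694 in the control library, and alveolar type 2 marker Sftpc had 10270 in the deleted-label and 7888 in the control library. Scgb1a1 is listed at 0 in both as a failed estimate and was not used. Of the other 8 club cell markers, Cyp2f2 alone was higher in the deleted-label library, and 3 of the 7 lower ones passed 1.5-fold. These were Scgb3a1 (121 in the deleted-label and 477 in the control library), Scgb3a2 (256 in the deleted-label and 691 in the control library) and Reg3g (19.1 in the deleted-label and 39.0 in the control library). Of 10 alveolar type 1 markers, 8 were at least 1.5-fold higher in the deleted-label library, and their summed FPKM was 409 there and 178 in the control library. Summed FPKM of 10 endothelial markers was 7.20 in the deleted-label and 12.1 in the control library, of 10 mesenchymal markers 8.56 in the deleted-label and 19.7 in the control library, and of 9 leukocyte markers 6.54 in the deleted-label and 13.5 in the control library, each sum lower in the deleted-label library. Summed FPKM of 6 basal cell markers was 9.26 in the deleted-label and 24.9 in the control library, and of 6 mucous cell markers 10.1 in the deleted-label and 31.4 in the control library. For 7 ciliated cell markers it was 52.0 in the deleted-label and 33.0 in the control library.

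Most of the families were present at low to moderate levels. FPKM reached 1 in at least 1 library for 29 of the 68 members, and these entered the counts below. A further 39 stayed under 1 in both, among them 4 at 0 in both libraries (Epha6, Epha8, Epha10 and Unc5cl). On the scale of log2(FPKM + 1), which understates the differences of low genes, 2 of the 29 were at least 1.5-fold higher in the deleted-label library, namely Sema3a and Ntn4. None was 1.5-fold lower. Over all 9945 genes that entered, 3.02% were 1.5-fold higher and 2.59% lower, and the 2 genes that passed are 6.90% of the members that entered. The median log2 difference was 0.12 over these members and 0.07 over all genes. Unc50 is 1 of the 29, at FPKM of 7.16 in the deleted-label and 6.53 in the control library. Without Unc50 and Unc5cl the median was also 0.12. A log2 difference above 0 was found for 20 of the 29 members, against 63.2% of all genes. Most members lay where most genes lay, and Sema3a lay apart from the other members.

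**Figure D1:**
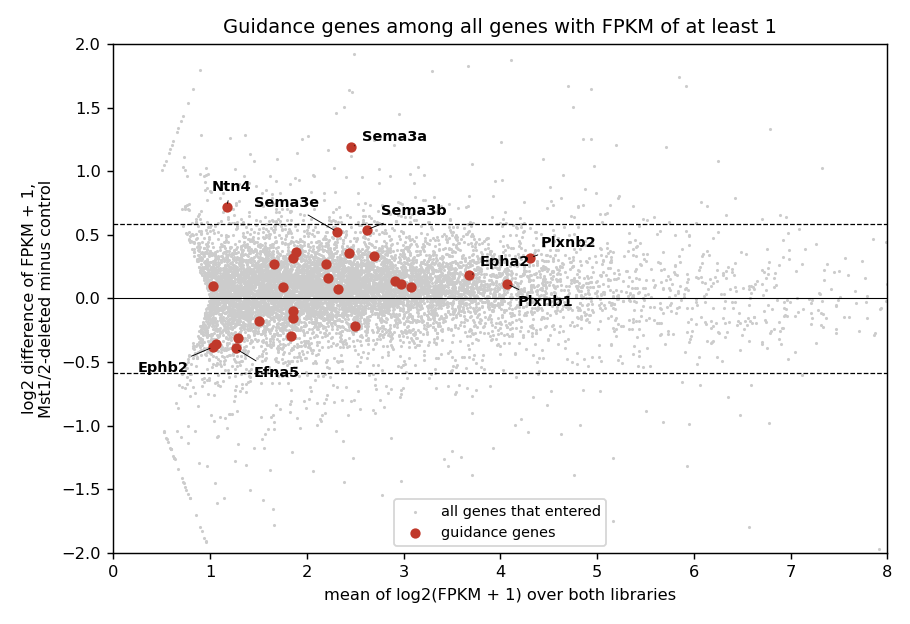
Each point is a gene with FPKM of at least 1 in a library, placed by its mean log2(FPKM + 1) over both libraries (x axis) and by its log2 difference of FPKM + 1, Mst1/2-deleted minus control (y axis). Red points are the 29 members that entered, Unc50 among them, grey points are all genes, dashed lines mark 1.5-fold, and 74 grey points lie beyond the axes. Sema3a and Ntn4 are the red points above the upper line.

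The class 3 semaphorins, which are secreted, held the largest difference. Sema3a (chr5:13399309-13602571, mm9), a repulsive ligand that acts through neuropilin 1 and A-type plexins, had an FPKM of 7.28 in the deleted-label library and 2.62 in the control library. Its FPKM ratio was 2.78 (interval 2.48 to 3.12), from about 1048 reads in the deleted-label and 422 reads in the control library, and its log2 difference was 1.19. The gene lay above 71.4% of all entered genes in the deleted-label library and above 36.4% in the control library. Sema3e, a ligand that binds plexin D1 without a neuropilin, had FPKM of 4.96 in the deleted-label and 3.14 in the control library, a ratio of 1.58 (interval 1.42 to 1.76). Sema3b had 6.40 in the deleted-label library and 4.09 in the control library, a ratio of 1.56 (interval 1.36 to 1.80). Both lay just inside the 1.5-fold line on the log2(FPKM + 1) scale, at log2 differences of 0.52 and 0.54.

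Sema3c, a class 3 semaphorin known from lung branching and heart outflow, went the other way, at 1.20 in the deleted-label library and 1.72 in the control library (ratio 0.696, interval 0.562 to 0.862). Of the class, 3 members stayed under FPKM of 1. Sema3f had 0.744 in the deleted-label and 0.582 in the control library, Sema3d 0.101 in the deleted-label and 0.213 in the control library, and Sema3g 0.00939 in the deleted-label and 0.0163 in the control library. The summed FPKM of all 7 class 3 genes was 20.7 in the deleted-label library and 12.4 in the control library, a ratio of 1.67, to which Sema3a contributed most. Alveolar type 1 markers were also higher in the deleted-label library, with a median FPKM ratio of 2.56 over 10 genes and values from 0.995 (Cav1) to 5.26 (Akap5). So were all 10 alveolar type 2 markers (median ratio 1.31) and all 7 ciliated markers (median ratio 1.40). Summed basal, mucous, endothelial, mesenchymal and leukocyte markers were lower, by the values given above. The part of these cell types in the semaphorin differences was not tested. In pooled bulk libraries, more cells of a type and more RNA per cell cannot be told apart.

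**Figure D2:**
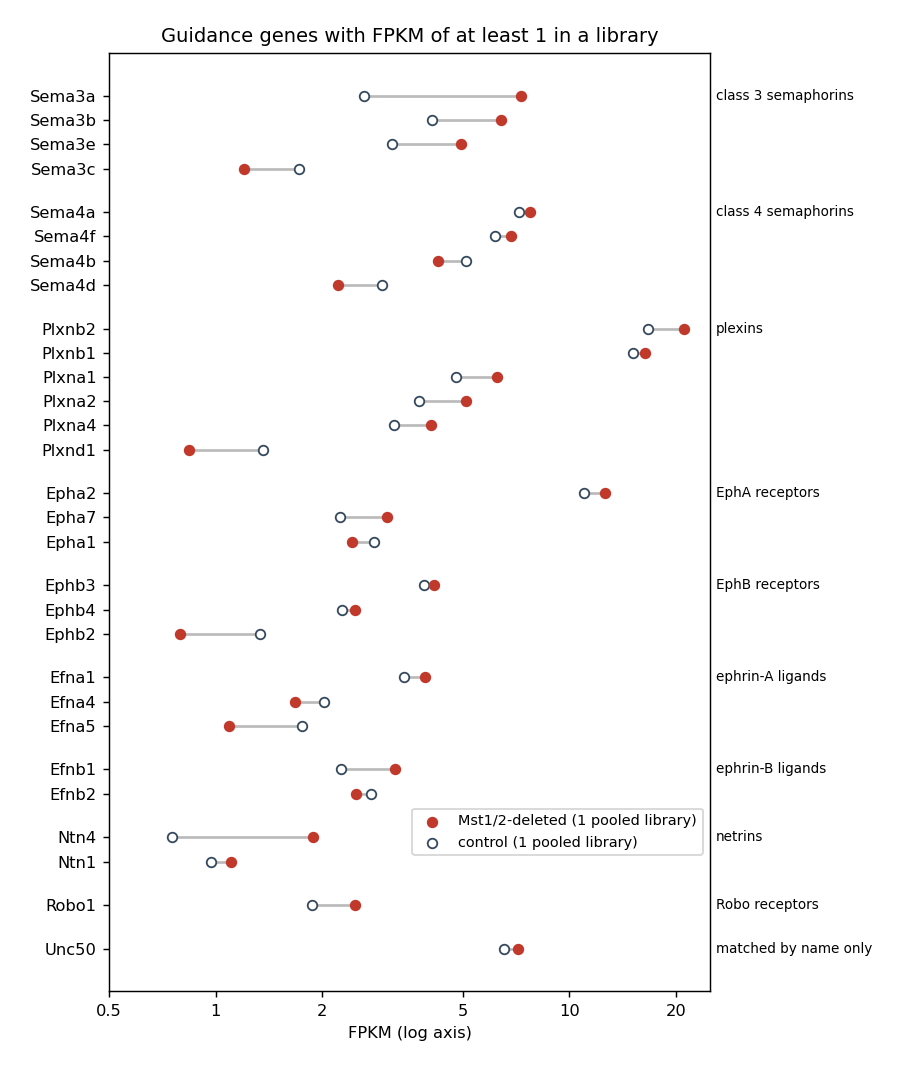
FPKM of the 29 members, Unc50 among them, that reached 1 in a library (x axis, log scale), by family. Filled points are the pooled Mst1/2-deleted library and open points the pooled control library. The widest gaps are those of Sema3a and Ntn4, and Plxnb2, Plxnb1 and Epha2 have the highest levels in both libraries.

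Class 4 semaphorins, which are membrane proteins with roles in immune and epithelial cells, differed little as a group. Their summed FPKM was 21.7 in the deleted-label library and 21.9 in the control library. Sema4a was the most abundant, with FPKM of 7.72 in the deleted-label library and 7.20 in the control library (ratio 1.07, interval 0.957 to 1.20). Sema4f had 6.86 in the deleted-label and 6.16 in the control library, with an interval of the ratio of 0.995 to 1.24. The other 2 members that reached FPKM of 1 had ratios below 1. Sema4b had 4.25 in the deleted-label library and 5.11 in the control library (ratio 0.833, interval 0.731 to 0.949). Sema4d, the ligand of plexin B1, had 2.22 in the deleted-label and 2.96 in the control library (ratio 0.749, interval 0.632 to 0.885). Sema4c and Sema4g stayed under FPKM of 1 in both libraries. None of the 7 semaphorins of classes 5 to 7 reached FPKM of 1, and their highest values were 0.363 in the deleted-label library (Sema6d) and 0.339 in the control library (Sema6a).

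Plexins, the semaphorin receptors, were the most abundant of these families, with a summed FPKM of 54.8 in the deleted-label library and 45.9 in the control library. Plxnb2 (chr15:88985979-89011218) had the highest FPKM of all members in both libraries, 21.1 in the deleted-label library and 16.7 in the control library (ratio 1.26, interval 1.20 to 1.33). Plxnb1 (chr9:108997950-109022429) followed at 16.4 in the deleted-label and 15.1 in the control library (ratio 1.09, interval 1.04 to 1.14). The plexin B receptors bind class 4 semaphorins. Plxnb2 and Plxnb1 lay above 91.3% and 88.7% of entered genes in the deleted-label library, and above 89.5% and 88.4% in the control library.

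The A-type plexins, which pair with neuropilins to bind class 3 semaphorins, had ratios close to each other. Plxna1 had FPKM of 6.26 in the deleted-label library and 4.77 in the control library (ratio 1.31, interval 1.21 to 1.42). Plxna2 had 5.11 in the deleted-label and 3.77 in the control library (1.36, interval 1.25 to 1.47), and Plxna4 4.06 in the deleted-label and 3.19 in the control library (1.27, interval 1.17 to 1.38). Plxna3 stayed under FPKM of 1, at 0.688 in the deleted-label and 0.647 in the control library. Plxnd1, the receptor of Sema3e that is best known from endothelium, was the plexin above FPKM of 1 with a ratio below 1, at 0.842 in the deleted-label library and 1.36 in the control library (ratio 0.618, interval 0.4996 to 0.762). Its ligand Sema3e thus differed in the opposite direction. Of the endothelial markers, Kdr alone reached FPKM of 1, at 5.11 in the deleted-label and 9.05 in the control library. Kdr held most of the endothelial sum in both libraries. Cdh5 (0.475 in the deleted-label and 0.425 in the control library), Tie1, Cldn5 and Tal1 were higher in the deleted-label library, and the other endothelial markers were lower. The part of endothelial RNA in the Plxnd1 value was not tested. None of the 9 plexins passed 1.5-fold on the log2(FPKM + 1) scale. The direction of Plxnb1 turned when a trend of the difference with transcript length was removed (log2 difference -0.017), and that of Plxnb2 when the most abundant transcript stood for the gene (-0.10). Removing the length trend also lowered the log2 differences of Plxna1 (0.33 to 0.20), Plxna2 (0.36 to 0.23), Plxna4 (0.27 to 0.15) and Plxnb2 (0.32 to 0.20). That of Plxnd1 went from -0.36 to -0.49.

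Neuropilins and the downstream partners were taken from a list of 70 partner genes chosen by pathway. Among the 48 that reached FPKM of 1, 3 were at least 1.5-fold higher in the deleted-label library and 1 was lower, against the 3.02% and 2.59% of all genes. Neuropilin 1 (Nrp1), the co-receptor for Sema3a, had FPKM of 13.98 in the deleted-label library and 9.55 in the control library (ratio 1.46, interval 1.37 to 1.57), under the 1.5-fold rule. Nrp2 had only 0.826 in the deleted-label and 0.867 in the control library. Dpysl2, whose product CRMP2 binds tubulin and relays Sema3a signals in neurons, passed the rule with 7.12 in the deleted-label library and 3.88 in the control library (ratio 1.83, interval 1.63 to 2.06). The 12 semaphorin partners that entered had a median log2 difference of 0.20, with 9 above 0. Over all genes that entered the median was 0.07, with 63.2% above 0.

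Eph receptors showed a single abundant member and otherwise low to moderate levels. Epha2 (chr4:140857155-140885293), the main Eph receptor of many epithelia, had FPKM of 12.6 in the deleted-label library and 11.0 in the control library, a ratio of 1.15 (interval 1.06 to 1.24). Epha7 had 3.04 in the deleted-label and 2.24 in the control library (ratio 1.36, interval 1.19 to 1.56). Epha1 had 2.43 in the deleted-label library and 2.81 in the control library, with an interval of the ratio, 0.710 to 1.04, that includes 1. Epha4 stayed under FPKM of 1 at 0.608 in the deleted-label and 0.685 in the control library, and Epha3 and Epha5 had at most 0.127. Over the 9 EphA genes, Epha2 held the larger part of the summed FPKM of 18.8 in the deleted-label library and 16.8 in the control library.

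The B-type Eph receptors differed in direction among themselves. Ephb3, a receptor known from epithelial boundaries in the gut, had FPKM of 4.14 in the deleted-label library and 3.89 in the control library, and Ephb4, the receptor of ephrin-B2 on veins, had 2.48 in the deleted-label and 2.27 in the control library. Counting intervals of both ratios, 0.930 to 1.22 and 0.918 to 1.30, include 1, and both directions turned once the length trend was removed (log2 differences -0.021 and -0.0034). Ephb2 was lower, at 0.793 in the deleted-label library and 1.34 in the control library (ratio 0.594, interval 0.457 to 0.7699). Ephb6, a receptor without kinase activity, had 0.489 in the deleted-label and 0.828 in the control library (ratio 0.591, interval 0.407 to 0.869). Ephb1 is listed at 0 in the deleted-label library and had 0.0470 in the control library, about 6 reads.

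Among the ephrins, 5 of 8 reached FPKM of 1. Efna1, a ligand of Epha2, was the most abundant, with FPKM of 3.92 in the deleted-label library and 3.41 in the control library (ratio 1.15, interval 0.904 to 1.47). Of these 5, Efna5 differed most, at 1.09 in the deleted-label and 1.75 in the control library (ratio 0.625, interval 0.503 to 0.771). Efna4 had 1.67 in the deleted-label library and 2.02 in the control library. Under FPKM of 1, Efna2 had 0.433 in the deleted-label and 0.904 in the control library and Efna3 0.708 in the deleted-label and 0.947 in the control library. Of the 5 ephrin-A genes, 4 thus had a ratio below 1, although the intervals of Efna3 and Efna4 include 1. The transmembrane ephrins split in direction. Efnb1 had 3.21 in the deleted-label library and 2.26 in the control library (ratio 1.42, interval 1.17 to 1.72), whereas Efnb2, the arterial ephrin and ligand of Ephb4, had 2.50 in the deleted-label and 2.74 in the control library (ratio 0.910, interval 0.769 to 1.07). Efnb3 had 0.0366 in the deleted-label and 0.117 in the control library.

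Of the 23 Eph and ephrin effector genes on the partner list, 18 reached FPKM of 1, with a median log2 difference of 0.04. Chn2, which encodes beta-chimaerin, a Rac GTPase activating protein, was the member past 1.5-fold, at 2.41 in the deleted-label library and 5.03 in the control library, 2.09-fold lower (interval 1.75 to 2.49). Sdcbp (syntenin), which binds the tail of ephrin-B proteins, was the most abundant, at 46.9 in the deleted-label and 38.9 in the control library.

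The 4 netrins had ratios above 1 and the 4 Unc5 receptors had ratios below 1, mostly at low levels. The intervals of Ntn1, Ntn5 and Unc5d include 1. Ntn4 (chr10:93103794-93208717), a basement membrane netrin that binds laminin, had FPKM of 1.89 in the deleted-label library and 0.752 in the control library, a ratio of 2.51 (interval 1.78 to 3.59) from about 110 reads in the deleted-label and 49 reads in the control library. Its span overlaps the listed gene Gm8580, which had 12.8 in the deleted-label library and 15.8 in the control library and thus differed in the other direction. Ntn1, the classic netrin, had 1.10 in the deleted-label and 0.969 in the control library (interval of the ratio 0.899 to 1.43), and its direction turned when the length trend was removed (log2 difference -0.021). Ntn3 had 0.232 in the deleted-label and 0.0726 in the control library (ratio 3.19, interval 1.42 to 6.99), with Tbc1d24 overlapping it at 0.659 in the deleted-label and 0.472 in the control library. Ntn5 had 0.267 in the deleted-label library and 0.102 in the control library (interval of the ratio 0.806 to 12.2). These values came from about 10 reads in the deleted-label and 4 reads in the control library.

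All 4 Unc5 receptors, which mediate repulsion by netrins, were under FPKM of 1 in both libraries and had ratios below 1. Unc5a had 0.187 in the deleted-label library and 0.550 in the control library, 2.95-fold lower (interval 1.71 to 5.28). Unc5b, known from endothelial tip cells, had 0.157 in the deleted-label and 0.398 in the control library, 2.53-fold lower (interval 1.55 to 4.37). Unc5c had 0.0874 in the deleted-label and 0.198 in the control library, 2.27-fold lower (interval 1.31 to 3.97). Unc5d had 0.0421 in the deleted-label and 0.0808 in the control library from about 9 reads in the deleted-label and 20 reads in the control library, with an interval that includes 1. Dcc, the attractive netrin receptor, was near 0 in both libraries (0.0213 in the deleted-label and 0.0194 in the control library). Neogenin (Neo1), the other receptor of this type, had 5.35 in the deleted-label library and 4.19 in the control library (ratio 1.28, interval 1.16 to 1.40). The summed mesenchymal, endothelial, leukocyte, basal and mucous markers were lower in the same library, by the values given above, and their part in the Unc5 values was not tested. Not every marker went that way. A higher FPKM there was found for 2 of the 10 mesenchymal, 4 of the 10 endothelial and 2 of the 9 leukocyte markers. Ratios were 2.07 for Acta2, 1.83 for Csf1r and 2.02 for Cd79a. Dcn and Mfap4 held most of the mesenchymal sum in both libraries. Dcn had 3.79 in the deleted-label and 11.9 in the control library, and Mfap4 0.973 in the deleted-label and 3.25 in the control library. The 4 smooth muscle and pericyte markers, all under FPKM of 1, summed to 0.282 in the deleted-label and 0.167 in the control library.

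Slit ligands and Robo receptors were scarce apart from Robo1. Robo1 had FPKM of 2.47 in the deleted-label library and 1.88 in the control library, a ratio of 1.32 (interval 1.15 to 1.51). Robo2 had 0.332 in the deleted-label and 0.235 in the control library (interval of the ratio 0.972 to 2.10). Robo receptors are known in mouse lung for the clustering of neuroendocrine cells, whose 7 markers summed to 14.3 in the deleted-label library and 17.2 in the control library. Robo4, a receptor of endothelial cells, had 0.0421 in the deleted-label and 0.0729 in the control library, and Robo3 at most 0.00688. Slit2 had 0.361 in the deleted-label library and 0.418 in the control library, while Slit3 had 0.211 in the deleted-label and 0.468 in the control library, 2.21-fold lower (interval 1.35 to 3.57). Slit1 rested on about 4 reads in the deleted-label library and 1 read in the control library.

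Flrt3, which encodes a membrane protein that binds Unc5 and Robo1 receptors, had FPKM of 11.1 in the deleted-label library and 4.05 in the control library (ratio 2.75, interval 2.47 to 3.08). Dag1 (dystroglycan), which binds Slit proteins and laminins, had 59.3 in the deleted-label and 37.6 in the control library (ratio 1.58, interval 1.52 to 1.64). Flrt3 and Dag1 were the netrin, Slit and Robo partners past 1.5-fold among 18 that reached FPKM of 1. Dag1 came back within 1.5-fold when the median of all genes was subtracted and when the length trend was removed.

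Low members were also counted by their FPKM ratio without a pseudocount, a rule added after the values had been seen. Of the 39 members under FPKM of 1 in both libraries, 22 had at least 20 approximate reads over both. Among these, 8 were at least 1.5-fold lower in the deleted-label library (Efna2, Ephb6, Sema3d, Slit3 and the 4 Unc5 receptors), which is 36.4%, and 2 were at least 1.5-fold higher (Ntn3 and Sema4g), which is 9.09%. Over all 3438 genes at such levels, 20.5% were lower and 17.3% higher, so a large share of genes with few reads differed by this much in either direction. The median FPKM ratio of the 22 members was 0.805, and that of all such genes 0.994.

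**Figure D3:**
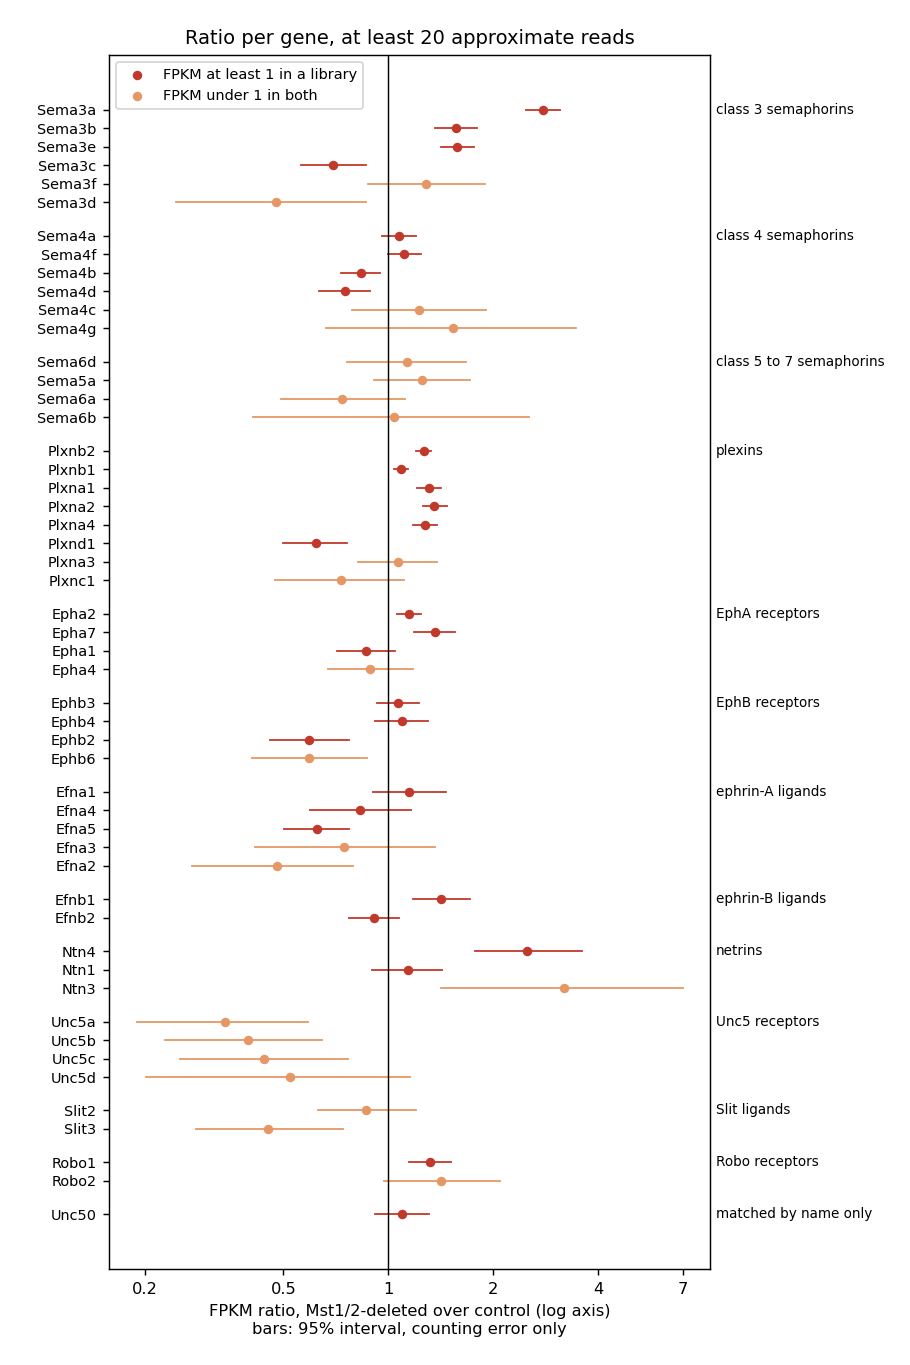
FPKM ratio, Mst1/2-deleted over control (x axis, log scale), for every member, Unc50 included, with at least 20 approximate reads over both libraries. Bars are 95% intervals for counting error alone. Dark points reached FPKM of 1 in a library and light points did not; Sema3a, Ntn4 and Ntn3 lie farthest to the right, and all 4 Unc5 receptors lie left of 1.

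Several members have more than 1 listed transcript, and the split between them was less certain than their sum. Plxnb2 has 2 transcripts of 6432 and 6497 bases. The longer held 31.5% of the gene's FPKM in the deleted-label library and 6.66% in the control library. Sema3b has transcripts of 3115 and 3305 bases, of which the shorter had FPKM of 5.09 in the deleted-label library and 2.59 in the control library, while the longer had 1.31 in the deleted-label and 1.502 in the control library. For Ephb6, whose 2 transcripts differ by only a few bases in length, nearly all FPKM was given to the longer in the deleted-label library and 90.9% to the shorter in the control library. The 5 transcripts of Sema6d behaved alike, with 99.9% on a single transcript in each library, but a different one. Reads that fit several transcripts are divided by estimation, so these splits have no error attached and are given as listed.

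**Figure D4:**
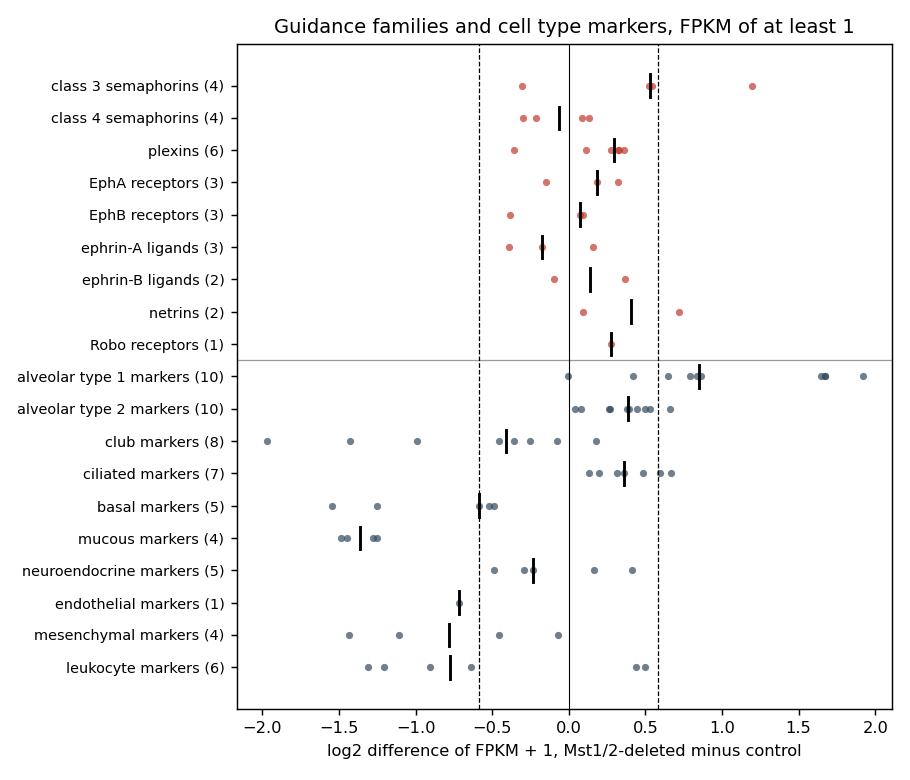
Log2 difference of FPKM + 1, Mst1/2-deleted minus control (x axis), for genes with FPKM of at least 1 in the guidance families (red) and in cell type marker lists (blue), with the number of genes in brackets, black bars for medians and dashed lines at 1.5-fold. Class 3 semaphorins reach 1.19, while alveolar type 1 markers extend to 1.92.

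Because Mst1 and Mst2 restrain Yap and Taz, which reach DNA through TEAD factors, the stretch before the transcription start was searched for the TEAD core motif. The sequences are RefSeq promoter windows on GRCm38.p6, a later build than the mm9 of the expression tables, and 59 of the 68 members had a window. Shown are Sema3a, Sema3e and Ntn4, which had some of the largest FPKM ratios, and Epha2, the most abundant Eph receptor. Ntn3, not shown, had a ratio of 3.19 at FPKM under 1 and holds the motif. Each runs 5′ to 3′ on the gene's own strand over the 250 bases before the listed start, with the motif (GGAATG, or CATTCC on the other strand) in capitals.
Sema3a, chr5:13396534-13396783: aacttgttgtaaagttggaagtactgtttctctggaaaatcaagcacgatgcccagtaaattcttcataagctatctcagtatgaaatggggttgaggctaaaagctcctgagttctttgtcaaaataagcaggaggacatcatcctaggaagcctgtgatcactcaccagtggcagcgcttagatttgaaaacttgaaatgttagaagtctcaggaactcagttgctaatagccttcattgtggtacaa
Sema3e, chr5:14025026-14025275: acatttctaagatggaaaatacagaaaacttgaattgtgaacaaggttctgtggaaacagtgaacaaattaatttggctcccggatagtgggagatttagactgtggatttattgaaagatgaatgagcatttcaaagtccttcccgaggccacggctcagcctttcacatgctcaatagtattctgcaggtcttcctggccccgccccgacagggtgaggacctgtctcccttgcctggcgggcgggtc
Ntn4, chr10:93640799-93641048: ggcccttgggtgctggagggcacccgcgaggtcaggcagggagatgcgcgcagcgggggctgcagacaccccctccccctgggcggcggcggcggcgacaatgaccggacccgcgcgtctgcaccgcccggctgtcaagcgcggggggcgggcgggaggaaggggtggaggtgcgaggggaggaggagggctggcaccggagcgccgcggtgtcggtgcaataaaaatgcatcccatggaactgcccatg
Epha2, chr4:141300971-141301220: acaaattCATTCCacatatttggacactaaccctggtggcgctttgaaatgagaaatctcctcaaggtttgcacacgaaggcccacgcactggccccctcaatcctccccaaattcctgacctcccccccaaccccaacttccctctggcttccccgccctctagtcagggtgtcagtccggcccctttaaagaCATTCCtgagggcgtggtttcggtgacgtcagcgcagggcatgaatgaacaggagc

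The motif was found 2 times before Epha2, beginning 243 and 56 bases upstream of the start, and was not in these windows of Sema3a, Sema3e and Ntn4. At least 1 copy was present for 8 of the 59 members (Efnb2, Epha1, Epha2, Epha3, Ntn3, Plxnb1, Plxnd1 and Sema4a), which is 13.6%, against 14.4% of 27025 genes with windows. A search for the AP-1 motif TGANTCA, which reads the same on both strands, found 3 members (Sema4c, Sema4d and Sema6b), which is 5.08%, against 7.82% of genes. Matches of the TEAD and AP-1 motifs overlapped each other in 25 of all windows and in 0 windows of members. The windows differed in base composition, with 40.8% G and C for Sema3a, 48.0% for Sema3e, 73.2% for Ntn4 and 55.6% for Epha2, against a median of 52.4% over all 32851 windows. A gene can have several starts, and the tables do not show which start these cells used. The Sema3e window ends at 14025275 on GRCm38.p6, and its mm9 span starts at 14025276. For Sema3a, the window ends at 13396783 and the mm9 span starts at 13399309, so the window may not adjoin the measured transcript. Coordinates were not converted between the builds. Whether any shown window adjoins the measured transcript was therefore not determined, and each motif result holds for its window only.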

How the data were processed

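Per the file headers, each library has a table of FPKM values that the authors deposited for 28107 RefSeq transcript entries, with the authors' coverage signal (mean read depth) and the transcript length. TopHat, Cufflinks and mm9 are named in the submitters' processing notes, without versions or settings. FPKM was summed per symbol. Reads were approximated as coverage times length over 47.1 bases, the median of low single-transcript rows between 25 and 75 bases. This size is an assumption. It gave exact (Clopper-Pearson) 95% intervals of FPKM ratios, scaled by a depth ratio of 0.895. They cover counting error only, and amplified reads are not independent molecules. Differences are log2 of FPKM plus a pseudocount of 1, Mst1/2-deleted over control. Genes entered at FPKM of at least 1 in a library and were counted when 1.5-fold apart. All members that entered are named, with partners that passed 1.5-fold or had the 5 highest means, except for a group of partners that is not reported here. Neighbours Nrp1, Nrp2, Dcc and Neo1 are named as receptors, chosen after their values were seen. Members, lists and rules were chosen with earlier results of these data known. Near-identical transcripts and overlapping genes depend on how reads were shared, and strand was not given. Python 3.11.15, pandas 2.3.3, scipy 1.17.1 and statsmodels 0.14.6 were used, and the steps were tested on simulated data.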

Additional observations from a re-analysis of the deposited data

How the results depend on the processing

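No paired analysis was possible because each genotype has 1 library, and no replicate could be left out. The median log2 difference of the members stayed above 0 under 9 alternatives, from 0.039 without a filter on low values to 0.18 with FPKM of at least 5. The count of members 1.5-fold higher, 2 as reported, was 1 with FPKM of at least 5 and at 2-fold (Sema3a in both). It was 3 with a pseudocount of 0.5 and with the most abundant transcript standing for the gene, where Sema3b also passed. With a pseudocount of 0.1 it was 4, as Sema3b and Sema3e also passed. After conversion to TPM it was 4, as Ntn3 and Ntn5 also passed. The count of members 1.5-fold lower, 0 as reported, was 3 with a pseudocount of 0.1 (Efna5, Ephb2 and Plxnd1) and 8 after conversion to TPM. TPM values are 6.63 and 6.86 times the FPKM in the libraries labelled Mst1/2-deleted and control, so the pseudocount and the filter weigh less there. Partners 1.5-fold higher, 3 as reported, were 5 with a pseudocount of 0.1 and 1 at 2-fold. Partners lower, 1 as reported, were 4 in TPM, 2 with pseudocounts of 0.1 and 0.5 and with the length trend removed, and 0 at 2-fold. Of 261 values of single genes recomputed, 10 moved beyond the counting interval. With few reads, differences of genes under FPKM of 1 are poorly determined.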
